A study of Homo sapiens with 6 samples.

Results

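The 7 genes described here encode the machinery that makes and restrains active sterol regulatory element-binding proteins (SREBPs): SREBF1, SREBF2, SCAP, INSIG1, INSIG2, MBTPS1 and MBTPS2. They were taken by name from a table of read counts for 78932 genes, in which each of the 7 has 1 row, and all 7 were among the 18474 genes that passed the filter on low counts. The cells were T24, a line from a human urothelial carcinoma, and RNA-seq libraries of poly(A) RNA were made from 3 samples transfected with a control siRNA (siNC) and 3 transfected with siRNA against TRIM28 (siTRIM28). The labels call the 3 samples of a group biological replicates and place all 6 in 1 batch, and p-values measure the spread between these samples. Some of these libraries lay closer to each other than the rest, as given with the processing below. Neither the labels nor the methods state which TRIM28 siRNA was used here or how long after transfection cells were collected, and all 6 samples grew in medium with serum. The study asked how TRIM28 affects cholesterol metabolism in bladder cancer cells.

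SREBPs are transcription factors that are made as membrane proteins of the endoplasmic reticulum, bound there to the escort protein SCAP. When sterols are plentiful, INSIG proteins hold SCAP in place, and when sterols are scarce, SCAP carries the SREBP to the Golgi, where the site-1 protease (gene MBTPS1) and then the site-2 protease (gene MBTPS2) cut it and free its nuclear part. SREBP-2, from SREBF2, acts mainly on genes of cholesterol synthesis and uptake, and SREBP-1, from SREBF1, mainly on genes of fatty acid synthesis. INSIG1 and SREBF2 are themselves known SREBP targets, which closes feedback loops. The counts measure mRNA and not how much SREBP protein was cut.

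TRIM28, a transcriptional corepressor that also acts as a SUMO ligase, fell from 104 ± 4.09 to 8.87 ± 0.658 CPM (mean ± SD, n = 3), with a log2 fold change of -3.54 (SE 0.07, edgeR adjusted p = 1.03e-10). CPM is the normalized read count used throughout, a gene's share of its library after TMM scaling. PPARG, the nuclear receptor that the study examined together with TRIM28, was at 7.14 ± 0.949 CPM in siNC and 7.52 ± 0.969 in siTRIM28 (log2 fold change 0.07, 95% interval -0.24 to 0.38, edgeR adjusted p = 0.728). The libraries held between 11712623 and 14018052 counts on genes, and the common biological coefficient of variation was 0.0733. Of 11 urothelial and epithelial markers, 4 passed the filter, and the summed level of the list was 191.4 to 197.5 CPM in siNC and 211 to 219 in siTRIM28. Most of that sum came from KRT8 and KRT18, keratins of simple epithelia, while UPK1B, a uroplakin that marks urothelium, was at 0 in every library and EPCAM, CDH1 and GATA3 were each under 1 CPM. Of the 4 markers tested 3 rose, beside 21.3% of all genes tested: the uroplakin UPK1A from 0.874 ± 0.490 to 3.41 ± 0.658 CPM (log2 fold change 1.94, edgeR adjusted p = 0.000548), KRT7 (0.56, edgeR adjusted p = 0.0126) and KRT8 (0.14, edgeR adjusted p = 0.0354). UPK1A held only 17, 15 and 4 counts in siNC. Among the markers under the filter, which were not tested, mean CPM was lower in siTRIM28 for GATA3 (0.585 to 0.249), EPCAM (0.397 to 0.217) and KRT19 (0.337 to 0.147). Of 8 markers of other cell types only COL1A1 passed the filter, at 0.932 ± 0.265 and 3.28 ± 0.635 CPM, and CD3E was at 0 in every library. The summed level of these 8 was 1.3 to 1.8 CPM in siNC and 3.43 to 4.81 in siTRIM28. The part of these shifts in the results below was not tested.

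Because SREBF2 and INSIG1 are known SREBP targets, the sequences around the starts of 3 of the genes are shown, each from 250 bases before to 50 bases after the start in RefSeq (GRCh38.p14). SREBF2 fell and INSIG1 rose, and SCAP, which fell, is shown because it holds the same E-box as INSIG1. The distances below are from the RefSeq starts, and the starts used in these cells were not measured. The part of these motifs in the changes was not tested. Capitals mark a sterol regulatory element (searched as TCACNCCAC), an E-box (CACGTG) or a CCAAT box (CCAAT, which reads ATTGG where it lies on the other strand).
SREBF2 (chr22:41832855-41833154, plus strand): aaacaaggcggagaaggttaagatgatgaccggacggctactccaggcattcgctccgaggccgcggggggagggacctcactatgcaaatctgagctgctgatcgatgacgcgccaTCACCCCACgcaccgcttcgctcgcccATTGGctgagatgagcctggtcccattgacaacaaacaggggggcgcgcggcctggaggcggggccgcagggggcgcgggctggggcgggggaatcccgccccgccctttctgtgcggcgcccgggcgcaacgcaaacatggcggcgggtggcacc
INSIG1 (chr7:155297628-155297927, plus strand): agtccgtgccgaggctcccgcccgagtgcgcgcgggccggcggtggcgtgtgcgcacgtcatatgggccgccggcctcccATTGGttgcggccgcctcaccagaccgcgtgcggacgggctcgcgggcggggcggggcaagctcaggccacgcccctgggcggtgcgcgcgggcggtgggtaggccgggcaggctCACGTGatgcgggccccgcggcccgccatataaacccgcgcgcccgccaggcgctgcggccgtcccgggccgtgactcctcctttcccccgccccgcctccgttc
SCAP (chr3:47475892-47476191, minus strand): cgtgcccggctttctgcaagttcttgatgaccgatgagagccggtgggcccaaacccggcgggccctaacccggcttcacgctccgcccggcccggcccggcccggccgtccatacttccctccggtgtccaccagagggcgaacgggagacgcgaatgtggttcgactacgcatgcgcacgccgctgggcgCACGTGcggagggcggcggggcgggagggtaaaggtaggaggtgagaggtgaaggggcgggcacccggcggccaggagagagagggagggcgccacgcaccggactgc
SREBF2 was the only one of the 7 genes whose window held the sterol regulatory element, from -133 to -125 relative to the start, a match found in 1.13% of 35116 RefSeq windows when both strands were searched. An E-box stood at -58 to -53 in SCAP and at -55 to -50 in INSIG1, and 7.26% of all windows held one. CCAAT boxes on the minus strand began at -106 in SREBF2 and at -170 in INSIG1, against 34.6% of all windows with one. The string used for the sterol regulatory element was found in 0 of 14 SREBP2 target genes with a window, so its absence does not show that a gene lacks such an element. Of the same 14 genes, 2 held an E-box, 11 a CCAAT box and 13 a GC box. The GC box GGGCGG, the motif named for Sp1 and held by 45% of windows, occurred 6 times in INSIG1, 4 times in SCAP, 3 times each in SREBF1 and SREBF2, once in each of the 2 windows of INSIG2, and not in the windows of MBTPS1 and MBTPS2. Matches to different motifs did not overlap in these windows, and a match is a run of letters and not a measured binding site.

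Of the 7 genes, 5 fell, 1 rose and 1 did not pass the test after TRIM28 silencing. SREBF1, SREBF2, SCAP, MBTPS1 and MBTPS2 were lower, and INSIG1 was higher by 29%. SREBF1 fell by 22.4%, the smallest of these falls, and MBTPS1 fell by 39.6%, the largest. INSIG2 did not pass. The background in these libraries was broad: by the same rule (edgeR quasi-likelihood test, Benjamini-Hochberg adjusted p under 0.05 over all genes) 41.8% of all genes tested changed, 21.3% upwards and 20.5% downwards. The values of the siNC and siTRIM28 libraries did not overlap for 6 of the 7 genes, against 52.0% of all genes tested. The median log2 fold change of the 7 was -0.37 beside 0.02 over all genes.

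**Figure D1:**
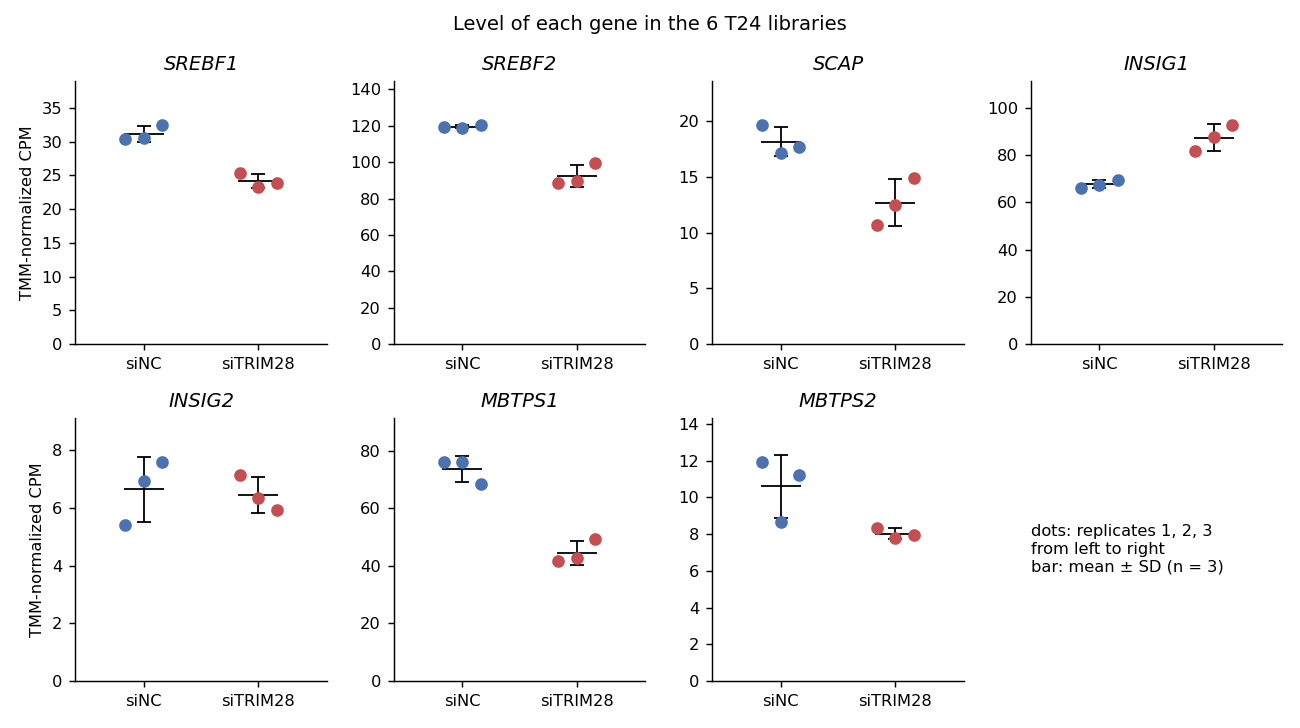
TMM-normalized CPM (y axis, from 0) of each of the 7 genes in the 3 siNC (blue) and 3 siTRIM28 (red) libraries, with the mean and SD (n = 3) as black bars. The groups are separate in every panel but INSIG2, with siTRIM28 higher for INSIG1 and lower for the other 5.

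Both factor genes fell by a like amount. SREBF1 (ENSG00000072310, chr17:17810399-17836986, minus strand), which encodes SREBP-1a and SREBP-1c, was at 30.4, 30.5 and 32.5 CPM in siNC replicates 1 to 3 and at 25.3, 23.2 and 23.8 CPM in siTRIM28 replicates 1 to 3. All siTRIM28 values lay below all siNC values, and the log2 fold change was -0.37 (SE 0.07, 95% interval -0.51 to -0.22, edgeR adjusted p = 0.000864). SREBF2 (ENSG00000198911, chr22:41833105-41907306, plus strand), the gene of SREBP-2, was at 119, 119 and 120.5 CPM in siNC and at 88.4, 89.9 and 99.6 CPM in siTRIM28. Its siNC libraries lay close together, siTRIM28 replicate 3 was nearest to them, and the groups did not overlap. The log2 fold change of SREBF2 was -0.37 (SE 0.05, 95% interval -0.48 to -0.25, edgeR adjusted p = 0.000178). Counts per gene cannot separate the SREBP-1a and SREBP-1c transcripts.

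SCAP (ENSG00000114650, chr3:47413681-47477126, minus strand), the escort and sterol sensor, fell as well. It was at 19.7, 17.1 and 17.7 CPM in siNC and at 10.7, 12.5 and 14.9 CPM in siTRIM28. The siTRIM28 libraries were spread more widely than the siNC libraries, and the highest of them stayed below the lowest siNC library. The log2 fold change of SCAP was -0.53 (SE 0.11, 95% interval -0.76 to -0.29, edgeR adjusted p = 0.00227).

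Of the INSIG genes, INSIG1 rose and INSIG2 did not pass the test. INSIG1 (ENSG00000186480, chr7:155297776-155308757, plus strand), the sterol-responsive retention factor, was at 66, 67.5 and 69.5 CPM in siNC and at 81.5, 87.7 and 92.7 CPM in siTRIM28. Every siTRIM28 library lay above every siNC library, and the log2 fold change was 0.37 (SE 0.06, 95% interval 0.24 to 0.49, edgeR adjusted p = 0.000332). INSIG2 (ENSG00000125629, chr2:118088452-118108372, plus strand), the paralog that does the same task, was at 5.4, 6.93 and 7.6 CPM in siNC and at 7.14, 6.33 and 5.91 CPM in siTRIM28. The groups overlapped, siNC replicate 1 being the lowest of all 6 libraries and siNC replicate 3 the highest. Its log2 fold change was -0.03 with a 95% interval from -0.36 to 0.30 (edgeR adjusted p = 0.889), so at 75 to 97 counts per siNC library a change of the size seen for INSIG1 lay outside the interval, while a fall of the size seen for SREBF2 lay just beyond its lower end.

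Of the Golgi proteases, MBTPS1 showed the largest fall of the 7 genes. MBTPS1 (ENSG00000140943, chr16:84053761-84116835, minus strand), the site-1 protease that makes the first cut, was at 76.1, 76.2 and 68.4 CPM in siNC and at 41.6, 42.6 and 49.1 CPM in siTRIM28. The groups were far apart, and the log2 fold change was -0.73 (SE 0.07, 95% interval -0.89 to -0.57, edgeR adjusted p = 1.22e-05). Of all genes tested, 5.54% had a lower log2 fold change. MBTPS2 (ENSG00000012174, chrX:21839617-21885423, plus strand), the intramembrane site-2 protease, was at 11.9, 8.67 and 11.2 CPM in siNC and at 8.36, 7.77 and 7.94 CPM in siTRIM28. The groups did not overlap, but siNC replicate 2 lay close to the siTRIM28 libraries. The log2 fold change of MBTPS2 was -0.40 (SE 0.13, 95% interval -0.68 to -0.12, edgeR adjusted p = 0.0255). This call was lost with DESeq2 (adjusted p = 0.0572) and in edgeR without siNC replicate 1 (log2 fold change -0.31, adjusted p = 0.115), siNC replicate 3 (-0.36, adjusted p = 0.0852), siTRIM28 replicate 2 (-0.39, adjusted p = 0.0651) or siTRIM28 replicate 3 (-0.40, adjusted p = 0.0644). A single-gene exact permutation test gave p = 0.1 for each of the 6 genes called and p = 0.9 for INSIG2, and 0.1 is the smallest p that 3 against 3 libraries allow.

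**Figure D2:**
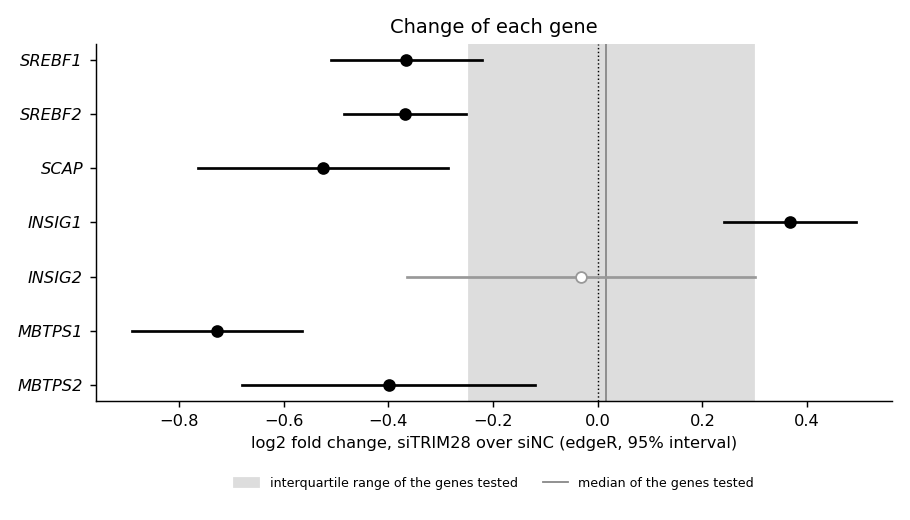
Log2 fold change of each gene (x axis, siTRIM28 over siNC, edgeR) with its 95% interval, filled where the adjusted p was under 0.05. The grey band is the interquartile range of all genes tested, -0.25 to 0.30, and each of the 6 filled points lies outside it.

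Levels were compared between genes only per kilobase of exon, using the gene lengths of the count table. In siNC the order was INSIG1 at 18.5 ± 0.474 CPM per kb, SREBF2 at 14.8 ± 0.104, MBTPS1 at 7.16 ± 0.438, SREBF1 at 3.78 ± 0.142, SCAP at 2.89 ± 0.211, INSIG2 at 1.68 ± 0.286 and MBTPS2 at 1.19 ± 0.193 (mean ± SD, n = 3). No neighbours in this order overlapped between libraries. In siTRIM28 the order was the same, with INSIG1 at 23.9 ± 1.53 CPM per kb, SREBF2 at 11.5 ± 0.754, MBTPS1 at 4.33 ± 0.399 and MBTPS2 at 0.897 ± 0.0337. There SCAP (1.70 to 2.36 CPM per kb) and INSIG2 (1.50 to 1.81) overlapped. By these gene lengths, INSIG1 mRNA was the most abundant of the 7 in both groups, and that of the site-2 protease the least. The count table gives 1 length per gene, and the lengths of the transcripts expressed here were not measured. The order between genes and the ratios per length below depend on the lengths given.

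**Figure D3:**
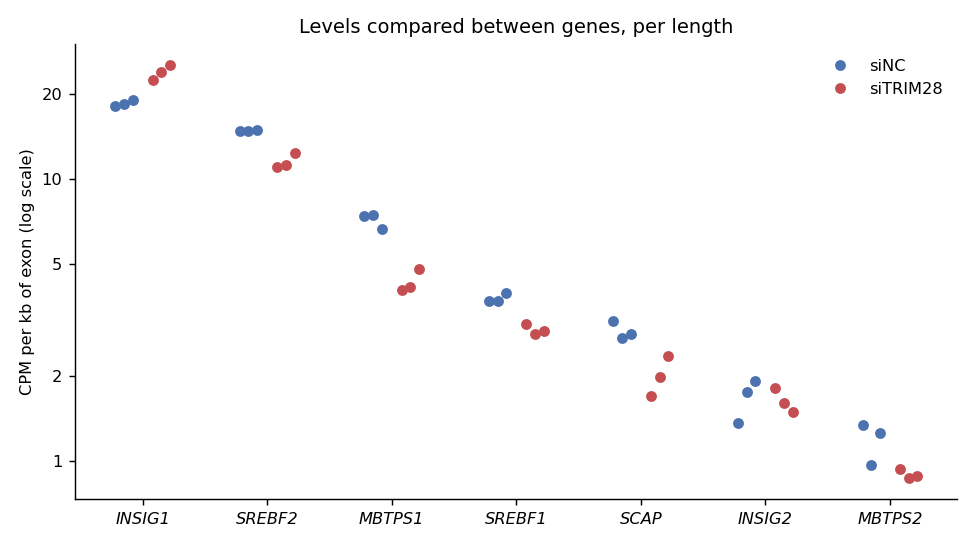
CPM per kb of exon (y axis, log scale) of the 7 genes, ordered by their siNC mean, in the siNC (blue) and siTRIM28 (red) libraries. INSIG1 and SREBF2, next to each other in siNC at 18.5 and 14.8, stand further apart in siTRIM28 at 23.9 and 11.5.

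Within-library ratios show how the genes shifted against each other, independent of scaling. For 3 pairs of related genes, the ratio was tested. SREBF1 over SREBF2 per length was 0.254 in siNC and 0.255 in siTRIM28, a log2 difference of 0.002 (SE 0.08, exact permutation p = 1.0, and 1.0 adjusted over the 3 ratios). The ratio of INSIG1 to INSIG2 per length was 11.1 in siNC and 14.6 in siTRIM28, and the log2 difference of 0.40 (SE 0.18, exact permutation p = 0.2, adjusted p = 0.3) left the groups overlapping. The same held for MBTPS1 over MBTPS2, at 6.08 and 4.81 per length (log2 difference -0.34, SE 0.19, exact permutation p = 0.2, adjusted p = 0.3), and without siNC replicate 2 the difference was -0.17. Whether the 2 genes of each pair differed in their response was therefore not resolved with these libraries.

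A further pair of ratios puts the retention factor over the proteins it restrains. They were built after INSIG1 had been seen higher and SCAP and SREBF2 lower in every siTRIM28 library, which fixes their direction and separation, so they are given as sizes with no test. The count ratio of INSIG1 to SCAP was 3.36, 3.94 and 3.92 in siNC and 7.61, 7.01 and 6.24 in siTRIM28, a ratio of these ratios of 1.86 (log2 difference 0.89, SE 0.11). The count ratio of INSIG1 to SREBF2 was 0.554, 0.567 and 0.576 in siNC and 0.922, 0.976 and 0.931 in siTRIM28, 1.67 times as high (log2 difference 0.74, SE 0.03). Per length, INSIG1 mRNA stood at 6.43 times SCAP in siNC and 11.9 times in siTRIM28, and at 1.25 and 2.08 times SREBF2.

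**Figure D4:**
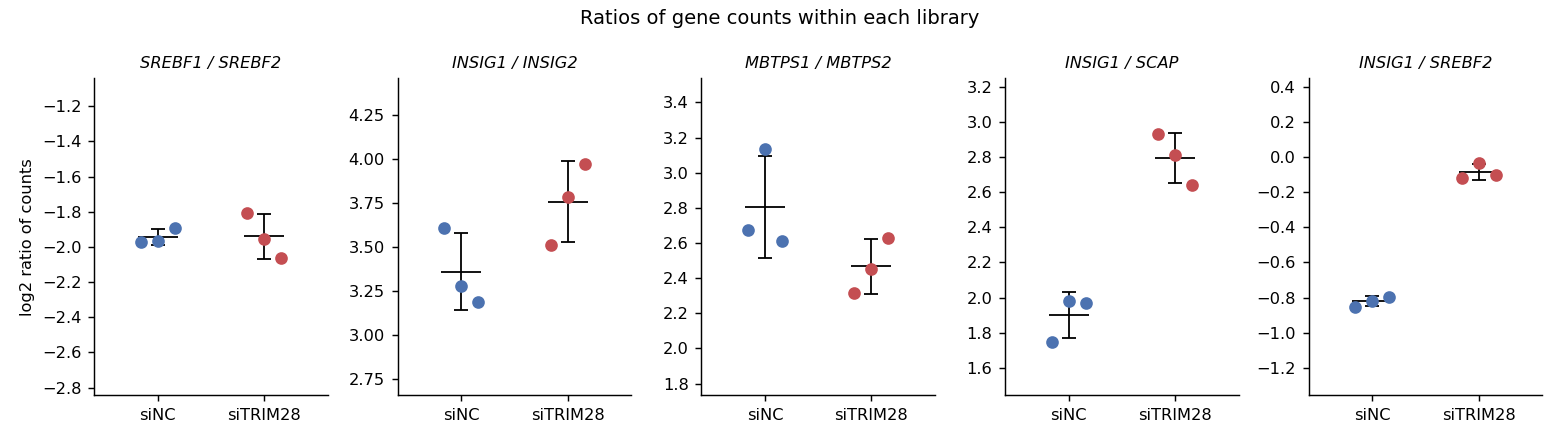
Log2 ratio of the counts of a pair of genes in each library (y axes of equal span), in siNC (blue) and siTRIM28 (red), with mean and SD (n = 3). The 3 ratios on the left overlap between the groups, and the other 2, built after the values were seen, differ by 0.89 and 0.74.

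Other rows of the count table overlap these genes, and the library kit kept strand but whether the counting used it is not given in the sources used here. RAI1, which overlaps SREBF1 on the opposite strand, went from 20.6 ± 1.07 to 16.4 ± 1.22 CPM (log2 fold change -0.33, edgeR adjusted p = 0.00456), in the same direction as SREBF1. INSIG1-DT, the divergent transcript at the INSIG1 start, rose with INSIG1 from 12.1 ± 0.331 to 14.9 ± 1.82 CPM (log2 fold change 0.30, SE 0.09, edgeR adjusted p = 0.0243). SREBF2-AS1, opposite SREBF2, had a log2 fold change of -0.20 (edgeR adjusted p = 0.159), and YY2, on the strand of MBTPS2, held only 28, 21 and 24 counts in siNC and 25, 13 and 5 in siTRIM28 (log2 fold change -0.66, edgeR adjusted p = 0.171). ENSG00000297418, opposite INSIG2, was at 0.389 ± 0.296 CPM in siNC and 0.873 ± 0.258 in siTRIM28 (log2 fold change 1.13, SE 0.47, edgeR adjusted p = 0.0763). Without strand in the counting, reads from the stretch that a gene shares with its antisense neighbour cannot be told apart.

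SREBF2 and SREBF1 also host a pair of microRNAs in their introns, miR-33a and miR-33b, which are known to act against genes of cholesterol export. Their mature 5p arms in RefSeq share the seed UGCAUUG, bases 2 to 8, shown in capitals.
hsa-miR-33a-5p (chr22:41900949-41900969, plus strand, within SREBF2): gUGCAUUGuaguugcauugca
hsa-miR-33b-5p (chr17:17813897-17813916, minus strand, within SREBF1): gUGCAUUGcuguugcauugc
The row for MIR33A held 3, 1 and 2 counts in siNC and 7, 2 and 5 in siTRIM28, under the filter, and MIR33B was at 0 in every library. Poly(A) libraries do not capture mature miRNAs, so these rows say nothing of their levels.

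The siRNAs against TRIM28 listed by the study were compared with the 3′ UTRs of the 7 genes, since a match to an siRNA's seed (bases 2 to 8 of its guide) can lower other mRNAs. For siTRIM28-1, SREBF2 had 1 match and the other 6 genes had none, and 15.3% of 12119 genes with a 3′ UTR had a match. For siTRIM28-2, INSIG2 had 1 match and the other 6 had none, against 18% of genes. The median log2 fold change of genes with and without a match was -0.03 and -0.02 for siTRIM28-1, and -0.16 and 0.01 for siTRIM28-2. For the shorter match to bases 2 to 7, siTRIM28-1 had 1 in SREBF2, 1 in SCAP, 2 in INSIG2 and 2 in MBTPS2, and 42.5% of genes had one. The same search for siTRIM28-2 gave 1 in SREBF1, 1 in SCAP, 2 in INSIG1 and 1 in INSIG2, against 42.2% of genes, and the medians with and without this match were -0.11 and 0.03. MBTPS1 was the only one of the 7 with no match of either length to either siRNA, and the part of these matches in the results was not tested.

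The steps around these genes were described with lists drawn up from general biochemistry, each by its counts and median beside 21.3% higher, 20.5% lower and a median log2 fold change of 0.02 over all genes tested. For the COPII coat, whose vesicles carry SCAP and SREBP out of the endoplasmic reticulum, 2 of 10 genes rose and 4 fell, with a median of -0.004. The falls were led by SEC23B, from 35.8 ± 1.56 to 15.9 ± 1.07 CPM (log2 fold change -1.17, edgeR adjusted p = 2.42e-07), and SEC24C, from 94.6 ± 1.55 to 48.9 ± 0.301 CPM (-0.95, edgeR adjusted p = 6.06e-08), followed by SAR1A, the GTPase that starts coat assembly (-0.25, edgeR adjusted p = 0.0417). SEC24B (0.28, edgeR adjusted p = 0.0133) and SEC23A (0.20, edgeR adjusted p = 0.0315) rose, so paralogs of the inner coat went opposite ways.

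The list for degradation of INSIG proteins holds ubiquitin ligases, their helpers and the p97 extraction machinery. Of its 12 genes, 6 rose and 4 fell, with a median log2 fold change of 0.09. ERLIN1, which with ERLIN2 forms a scaffold in the endoplasmic reticulum that binds SREBP, SCAP and INSIG1, fell from 105 ± 3.10 to 44.6 ± 2.66 CPM (log2 fold change -1.24, edgeR adjusted p = 3.27e-08). ERLIN2 fell too (-0.81, edgeR adjusted p = 4.11e-06). UFD1, a p97 cofactor, rose from 46.3 ± 2.19 to 86.5 ± 2.53 CPM (log2 fold change 0.90, edgeR adjusted p = 2.57e-07), and RNF5 (0.42, edgeR adjusted p = 0.00211) and TMUB1 (0.38, edgeR adjusted p = 0.00215) rose with it.

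Among 10 partners and other substrates of the Golgi proteases, 8 were tested, 1 rose and 4 fell, with a median log2 fold change of -0.19. GNPTAB, cut by the site-1 protease on the way to the lysosomal sorting enzyme, fell from 13.6 ± 0.407 to 7.55 ± 0.484 CPM (-0.85, edgeR adjusted p = 1.94e-05). CREB3L2 (-0.84, edgeR adjusted p = 0.000164) and ATF6, the stress sensor released by the same proteases (-0.52, edgeR adjusted p = 0.00011), fell as well. PAQR3, a Golgi anchor of SCAP, rose from 8.94 ± 1.17 to 12.8 ± 1.51 CPM (0.53, edgeR adjusted p = 0.00405). SPRING1, a partner of the site-1 protease, had a log2 fold change of -0.02 (edgeR adjusted p = 0.881).

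Of 13 genes that act with or on nuclear SREBP, 4 rose and 3 fell, with a median log2 fold change of 0.01. FBXW7, the ligase subunit that marks nuclear SREBP for degradation, rose (0.36, edgeR adjusted p = 0.000644), as did CDK8 (0.24, edgeR adjusted p = 0.0179) and its cyclin CCNC (0.23, edgeR adjusted p = 0.00188). NFYB, a subunit of the CCAAT-binding factor NF-Y (-0.43, edgeR adjusted p = 0.00136), MED15 (-0.24, edgeR adjusted p = 0.00899) and GSK3B (-0.23, edgeR adjusted p = 0.00729) fell. Among the 4 genes of LXR and RXR, the nuclear receptors that induce SREBF1, RXRA fell from 15.1 ± 0.124 to 6.57 ± 0.623 CPM (-1.19, edgeR adjusted p = 1.76e-06) and RXRB fell (-0.53, edgeR adjusted p = 0.000522), while NR1H2 rose (0.20, edgeR adjusted p = 0.00668), and the median of the 4 was -0.44.

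Downstream, 11 of 19 SREBP2 target genes tested fell and 2 rose, with a median log2 fold change of -0.23. DHCR7 (-0.97, edgeR adjusted p = 1.06e-06) and LSS (-0.86, edgeR adjusted p = 1.9e-06), enzymes of late cholesterol synthesis, were among the largest falls, whereas NPC1, which exports cholesterol from lysosomes, rose from 17.2 ± 0.317 to 31.9 ± 1.62 CPM (0.89, edgeR adjusted p = 1.14e-06). Of 14 SREBP1 target genes tested, 7 fell and none rose, with a median of -0.14. GPAM, the first enzyme of glycerolipid synthesis, fell from 14.7 ± 0.985 to 5.67 ± 1.19 CPM (-1.39, edgeR adjusted p = 8.28e-06), SCD from 365 ± 3.77 to 237 ± 5.46 CPM (-0.62, edgeR adjusted p = 2.23e-07) and ELOVL6 from 67.1 ± 2.62 to 50.9 ± 2.07 CPM (-0.40, edgeR adjusted p = 0.000185). Several SREBP2 targets are among the cholesterol genes that the study chose to display from these samples, so their direction is not independent evidence.

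**Figure D5:**
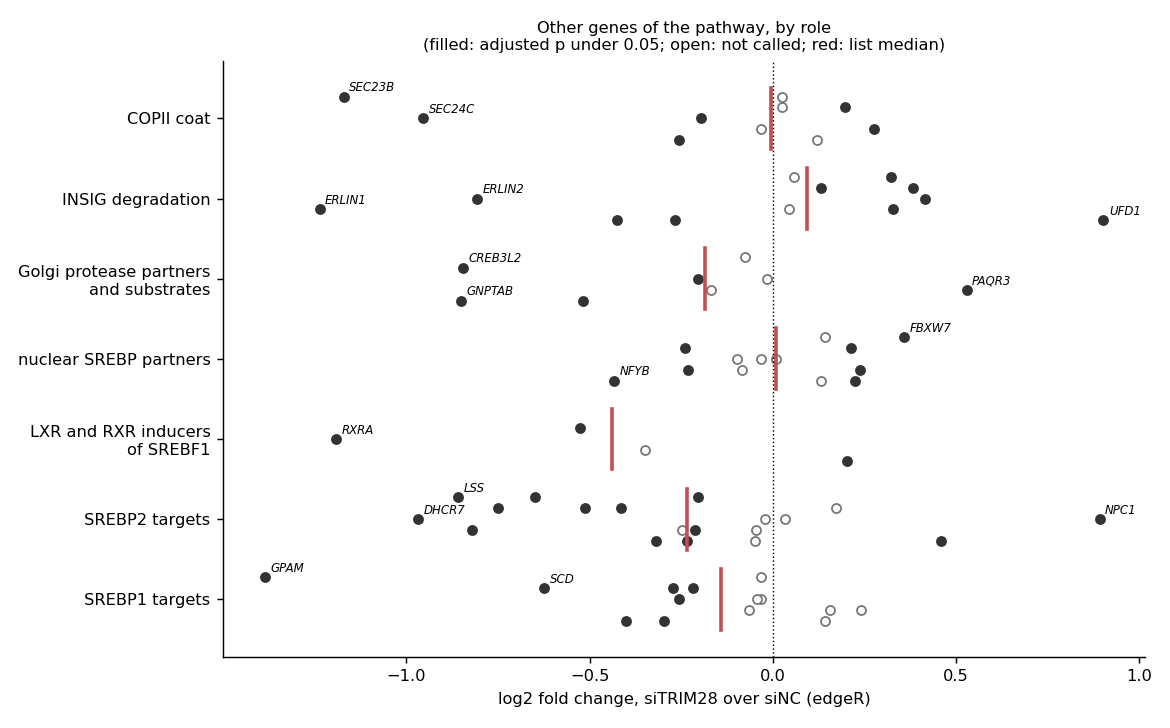
Log2 fold change (x axis, siTRIM28 over siNC, edgeR) of each tested gene of 7 lists (rows), filled where the adjusted p was under 0.05, with the list median as a red bar and some genes named. Every list but the SREBP1 targets holds filled points on both sides of 0.

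The genes of these lists whose log2 CPM followed each of the 7 most closely were sought over the 6 libraries, among 92 genes. Since the groups differ, such an r mostly carries the difference between siNC and siTRIM28, and it is given as a description. SREBF1 was most like DHCR7 (Pearson r = 0.991) and RXRA (0.984), and SCAP most like NFYC (0.972) and CREB3L2 (0.968). MBTPS1 was most like ELOVL6 (0.99) and SREBF2 (0.983), MBTPS2 most like NFYB (0.905) and RXRB (0.874), GPAM (0.983) was among the 2 genes most like SREBF2, and NPC1 (0.971) among the 2 most like INSIG1. INSIG2, which did not pass the test between the groups, reached only 0.717 with SEC24D and 0.692 with SP1. Among the 7 themselves, r ran from 0.983 for SREBF2 with MBTPS1 to -0.946 for SREBF1 with INSIG1.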

How the data were processed

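Poly(A) RNA was sequenced from 3 siNC and 3 siTRIM28 samples of T24 cells. The values the authors deposited were raw counts per gene, with coordinates and gene lengths on GRCh38. The submitters' processing notes name fastp 0.23.1, STAR 2.7.6a and featureCounts, and the strand setting and annotation release are not given in the sources used here. The authors' RPKM table of genes they call differentially expressed was not used. All 6 libraries were kept, although siNC replicates 1 and 2 (chi-square 1.08 per degree of freedom) and siTRIM28 replicates 2 and 3 (1.22) lay closer than the other pairs (4.17 to 6.25). A value near 1 is what counting noise alone would give, so a group may hold fewer than 3 independent samples. With the close libraries summed, the same 6 of the 7 genes were called, with larger edgeR adjusted p (0.00821 for SREBF1 and 0.0216 for INSIG1).

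A gene was tested if 3 or more libraries held 10 or more counts. The test was edgeR's quasi-likelihood F test (version 4.0.16, R 4.3.3) after TMM scaling, with condition alone in the model and p-values adjusted by Benjamini-Hochberg over 18474 genes at a threshold of 0.05. Exact two-sided permutation tests used log2 CPM (prior count 2) or log2 ratios of raw counts. For the ratios, 0.5 added to each count was an alternative setting. The alternatives were 3 other scalings, DESeq2 1.42.0, limma-voom 3.58.1, 2 other count filters, the replicate number as a block, summing of the close libraries, an adjusted p under 0.01, and each library left out. The code was tested on simulated data. Promoters and miRNAs came from RefSeq, and 3′ UTRs (the longest per gene, at least 30 bases) from GENCODE v29.

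The 7 genes and the lists were chosen with earlier results of these data known. Genes named are TRIM28, PPARG, rows overlapping the 7, the 3 largest rises and 3 largest falls called in each list, the 2 list genes most like each of the 7, and, picked after their values were seen, SPRING1 and the markers. Some list genes are not reported here by name.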

Additional observations from a re-analysis of the deposited data

How the results depend on the processing

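Of 326 comparisons of a reported value with an alternative, 294 were counted as unchanged. For single genes this meant the same direction and side of the threshold. For list medians it meant a move smaller than the SD of the median over the 3 siTRIM28 libraries. That SD ran from 0.010 for the Golgi protease list to 0.065 for the COPII list, so the limit differed between lists. Counts of called genes had a looser limit, under which 5393 beside 7723 was unchanged. The exact permutation p of a ratio cannot fall under 0.1, so for the ratios only a change of direction could count. For the 2 ratios built after the values were seen, which are among the 326, the direction was fixed as well. For single genes the stricter threshold kept the same log2 fold change, so only the call could differ there. Between 5 and 6 of the 7 genes were called in every setting, the one at issue being MBTPS2 (log2 fold change -0.41 with DESeq2, -0.40 and not called at an adjusted p under 0.01, and -0.53 to -0.31 without 1 library). INSIG2, never called, changed sign with upper-quartile scaling (0.0025) and ranged from -0.17 to 0.071 without 1 library, and the log2 ratio of SREBF1 to SREBF2 from -0.065 to 0.064. Calls over all genes ran from 5393 to 8018 in the settings with all libraries, against 7723, the lowest at an adjusted p under 0.01.

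The median of the INSIG degradation list was 0.13 with upper-quartile scaling, 0.11 with total counts, 0.070 with close libraries summed and 0.073 to 0.11 without 1 library. That of the Golgi protease list was -0.15, -0.17 and -0.22 in the same settings, -0.13 without the filter and -0.24 to -0.18 without 1 library. The nuclear partners' median, near 0, was 0.043 with upper-quartile scaling, -0.025 with close libraries summed and -0.024 to 0.036 without 1 library. The LXR and RXR median ran from -0.51 to -0.40 without 1 library, and the SREBP1 targets' median was -0.073 without the filter and -0.18 to -0.13 without 1 library. The causes were not tested.

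Replicates of the same number did not deviate together (residual correlations 0.05, -0.01 and 0.04, and not every sample correlated best with its own number), so the numbers were not taken as pairs. With the replicate number as a block, 7910 genes were called and the same 6 of the 7 genes (MBTPS2 log2 fold change -0.40, edgeR adjusted p = 0.0136). Depth limits INSIG2 and MBTPS2 most, with 70 to 166 counts per library.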
